A study of Homo sapiens with 2 samples.

Results

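GAS5, SNHG1, SNHG5, SNHG6, SNHG8, SNHG12, SNHG15, SNHG16, SNHG29 and ZFAS1 are human genes whose transcripts carry small nucleolar RNAs (snoRNAs) in their introns and are annotated as long non-coding RNAs (lncRNAs). These 10 genes were chosen by name, and all of their transcripts in the deposited tables were taken, 162 of 206696 listed transcripts and 10 of 59026 genes. Total RNA depleted of rRNA was sequenced from HEK293 Flp-In T-Rex cells, a derivative of a human embryonic kidney cell line with an integration site for transgenes. The labels name no treatment and no transgene for these libraries. There was 1 group of 2 libraries, replicate 1 with 25158962 and replicate 2 with 27143860 estimated counts, and whether they came from separate cultures was not stated. With this design no condition could be compared, and the smallest two-sided sign-flip p is 0.5, so the spread between the libraries, which may be technical, was the only error available. All 10 HEK293 marker genes checked were detected. Of markers of other cell types, PTPRC, CD3E, ALB, MYH7 and CDH5 were listed at 0, and MYH6 and PECAM1 stayed below 1 normalised count on average. HBB, a globin gene of red cells, was listed at 179 and 182 normalised counts, all of them on transcripts annotated as retained-intron.

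The snoRNAs of such host genes are released from the introns when the transcript is spliced. Box C/D snoRNAs guide ribose methylation and box H/ACA snoRNAs guide pseudouridylation, mostly of ribosomal RNA. The spliced host RNA is often degraded by nonsense-mediated decay, and many host genes, coding and non-coding, begin transcription within a tract of pyrimidines, the terminal oligopyrimidine (TOP) motif known from ribosomal protein genes.

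The starts of the host genes are shown because this tract defines the TOP class. In the following windows, read from the GRCh38 genome on the gene's strand, the first 10 bases precede the annotated start, and capitals mark the unbroken run of pyrimidines from the first transcribed base. Starts of SNHG5 (chr6:85678714-85678743, minus strand), SNHG12 (chr1:28581854-28581883, minus), ZFAS1 (chr20:49278632-49278661, plus), SNHG1 (chr11:62855866-62855895, minus), SNHG8 (chr4:118278752-118278781, plus) and SNHG16 (chr17:76557754-76557783, plus) are from RefSeq. Those of GAS5-218 (chr1:173867970-173867999, minus) and SNHG29-211 (chr17:16439027-16439056, plus) are the GENCODE v44 starts of the transcripts with most counts. The windows thus mix sources. The RefSeq starts of GAS5 and SNHG29, not shown, begin in purine, and the leading SNHG5 and SNHG12 transcripts do not begin with C.
SNHG5: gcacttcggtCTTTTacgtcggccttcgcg
SNHG12: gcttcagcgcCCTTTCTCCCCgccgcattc
ZFAS1: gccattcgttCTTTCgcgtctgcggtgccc
GAS5-218: accatactgtCTTTTCgaggtaggagtcga
SNHG29-211: aaggtgtgacCTTTTCattcccgttgttat
SNHG1: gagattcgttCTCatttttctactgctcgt
SNHG8: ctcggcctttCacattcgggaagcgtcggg
SNHG16: gggcggtctcgcgttcttttcgaggtcggc

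A start with C and at least 5 pyrimidines in a row was found at 3 of the 8 host genes with a RefSeq start (SNHG5, SNHG12 and ZFAS1), against 4.07% of 35116 RefSeq starts. At the start of the leading annotated transcript it was found in 4 of 10 (GAS5, SNHG6, SNHG29 and ZFAS1), against 3.38% of 19110 genes and 5 of 22 protein-coding host genes. Only ZFAS1 met the rule at both starts. The annotated positions decide the call in several genes: the leading SNHG5 transcript is annotated to begin 15 bases upstream of the RefSeq start, SNHG16 begins in purine with a pyrimidine run a few bases further on, and the RefSeq start of GAS5 (chr1:173869045) lies outside the GENCODE v44 gene. Starts are annotation and were not measured in these libraries.

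The host genes together took 44919 estimated counts of replicate 1 (0.179% of the library) and 42612 of replicate 2 (0.157%). To compare genes, estimated counts were divided by transcript length, summed per gene and scaled to 1000000 per library, and this value is called the level per length below. On this scale the summed level of the 10 genes was 1338 ± 181 (SD, n = 2).

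SNHG29 had the highest level, 370.8 in replicate 1 and 326.2 in replicate 2 (348 ± 31.5; all errors are SD, n = 2). SNHG16 followed with 326.2 and 275.1 (301 ± 36.1). The lower value of SNHG29 and the higher of SNHG16 were nearly equal, and the order of these genes was not separated by the spread between libraries. Divided by the union of all annotated exons instead, the levels were 74.2 ± 7.05 for SNHG29 and 180.0 ± 25.6 for SNHG16, so that SNHG16 then lay above SNHG29 by more than the spread. SNHG29 ranked 4 and SNHG16 ranked 6 among 15572 lncRNA genes by level per length. SNHG16 and SNHG29 contributed 67.1% and 67.9% of the normalised counts of the host genes, and 47.5% and 49.7% of their levels. The lncRNA gene ranked next above SNHG29, ENSG00000276232, reached 844.2 and 595.7.

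**Figure D1:**
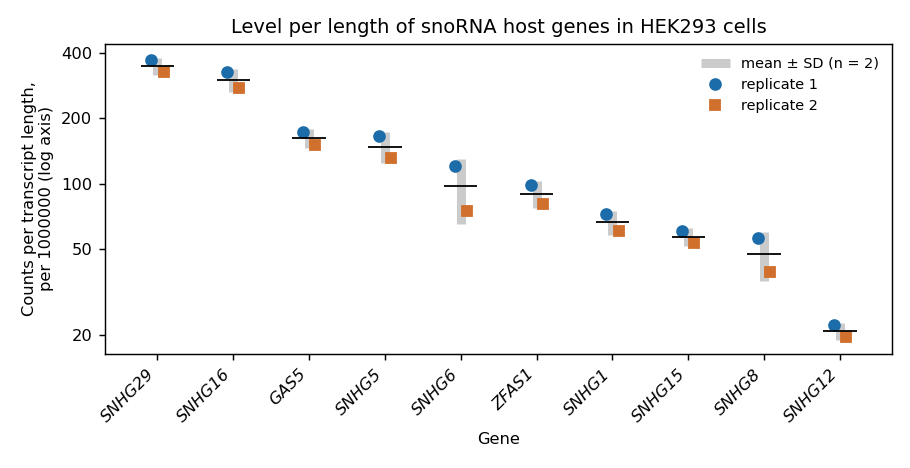
Level per length (estimated counts divided by transcript length, per 1000000; log axis) of the 10 host genes in replicate 1 (circles) and replicate 2 (squares), with the mean (line) ± SD (grey bar, n = 2). The levels run from 20.9 for SNHG12 to 348 for SNHG29, and replicate 2 lies below replicate 1 in every gene.

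GAS5, named for its accumulation in growth-arrested cells, had levels of 173.2 and 150.2 (162 ± 16.3). SNHG5, host of the SNORD50 pair, had 165.3 and 131.3 (148 ± 24.1). GAS5 and SNHG5 were not separated from each other, and both lay below SNHG16 and SNHG29 in both libraries. SNHG6, host of SNORD87, had the least certain level, 120.7 in replicate 1 and 74.6 in replicate 2 (97.6 ± 32.6). ZFAS1, whose gene overlaps the start of ZNFX1 on the other strand, had 99.0 and 80.8 (89.9 ± 12.9). SNHG6 and ZFAS1 were the only pair of host genes whose order changed, with SNHG6 higher only in replicate 1.

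SNHG1, the host of SNORD22 and 7 neighbouring snoRNA genes, had levels of 72.5 and 60.4 (66.4 ± 8.50). SNHG15, host of SNORA9, had 60.6 and 53.1 (56.8 ± 5.33). SNHG8, host of SNORA24, had 56.0 and 38.9 (47.5 ± 12.1). None of SNHG1, SNHG15 and SNHG8 was separated from the others of the 3. SNHG12, host of SNORA61, SNORA44, SNORA16A and SNORD99, was lowest with 22.1 and 19.6 (20.9 ± 1.82) and lay below each of the other host genes. Across the 45 pairs of host genes, 37 kept their order in both libraries with a difference of means above the sum of both SDs. The other pairs not separated were SNHG5 with SNHG6 and SNHG1 with SNHG6.

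Even SNHG12 ranked 59 among the lncRNA genes, and 6 of the host genes ranked within the first 14 (SNHG29, SNHG16, GAS5, SNHG5, SNHG6 and ZFAS1). Of 17 other non-coding host genes, 15 reached a mean of 10 normalised counts. Those 17 had a median level of 14.4, with SNHG7 highest at 77.4 and SNHG18 and MEG8 listed at 0, against a median of 93.7 for the 10 genes described here. The 22 protein-coding host genes, among them ribosomal protein and translation factor genes, had a median of 1268, and the lowest of them, CCT2, a chaperonin subunit, was at 126. GAS5, SNHG5, SNHG16 and SNHG29 lay above CCT2. These lists were taken with earlier results known and are given as description.

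In normalised counts, all 10 host genes were lower in replicate 2 than in replicate 1, where 55.2% of the 19110 genes averaging 10 or more were lower. The median log2 difference (replicate 2 minus replicate 1) was -0.28 for the host genes, from -0.56 for SNHG6 to -0.18 for SNHG29, against -0.06 over all these genes (25th to 75th percentile -0.32 to 0.24). None of the 10 passed 2-fold, against 5.23% of all genes. SNHG16, with most counts, went from 21581 to 17757 normalised counts and SNHG12, with the lowest mean, from 645.1 to 539.9, so that the lower values in replicate 2 were seen at both ends of the range. Protein-coding host genes were lower in 19 of 22 (median -0.22), while the other non-coding hosts were lower in 8 of 15 (median -0.03). The 2 libraries also differed in the share of misc_RNA, an annotation class of structured RNAs, 10.8% in replicate 1 and 12.2% in replicate 2, and its part in the difference of the host genes was not tested.

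**Figure D2:**
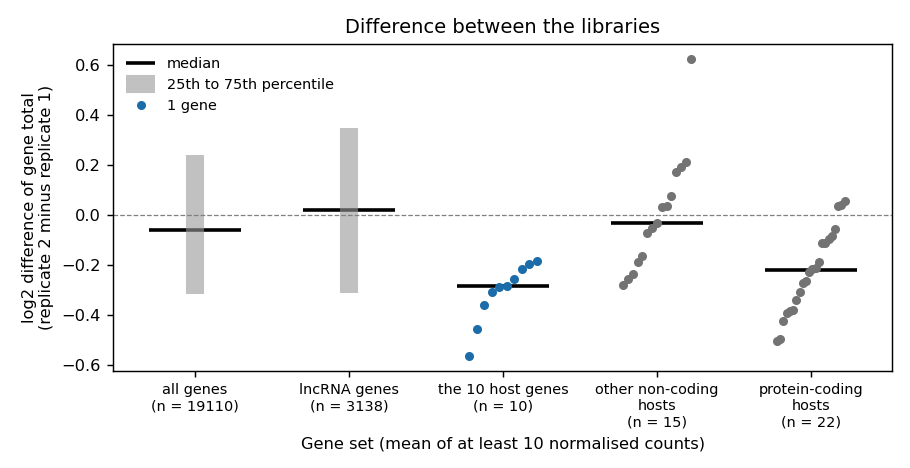
log2 difference of gene totals in normalised counts (replicate 2 minus replicate 1) for genes with a mean of at least 10. Points are single host genes, black lines are medians, and grey bars span the 25th to 75th percentile of all genes and of lncRNA genes. The 10 host genes lie between -0.56 and -0.18.

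The tables divide each gene into transcripts. Of the 162 host transcripts, 45 were at 0 in both libraries and 24 in 1 library, and 26 had a mean share of at least 10% of their gene. These 26 carried 79.0% and 79.6% of the host counts. The transcript with most counts was the same in both libraries in 7 of the 10 genes and differed in 3, against 21.5% of 16735 genes with several transcripts in which it differed. The median distance between the transcript shares of the 2 libraries (the percentage of counts that would have to change transcript to make them equal) was 12.9% over the host genes, from 3.72% in SNHG16 to 35.3% in SNHG12, against 11.8% over 6139 genes with at least 5 transcripts and 500 or more normalised counts on average.

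SNHG16 and SNHG5 had a leading transcript with over 50% of counts in each library. SNHG16-202 held 58.0% (95% interval 57.3 to 58.7; all intervals are exact Clopper-Pearson intervals of counting error only) and 55.0% (54.3 to 55.7). SNHG16-206, which adds a segment of 227 bases, held 16.3% and 19.3%, and SNHG16-207 held 16.4% in both. SNHG5-202, a transcript of 6 exons and 451 bases, held 54.9% (52.9 to 56.9) and 53.4% (51.3 to 55.5) of SNHG5. For SNHG16 and SNHG5 the intervals of the leading shares lay far from the next transcript, but they do not cover the division of reads between transcripts. SNHG5-202 and SNHG16-206 hold no stretch of 50 bases absent from the other listed transcripts of their gene. In SNHG16-202 such stretches were 1.97% of all.

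By counts, the leading transcript of SNHG6, SNHG12 and ZFAS1 differed between the libraries, whereas with counts divided by length each had the same leader in both (SNHG6-205, SNHG12-204 and ZFAS1-201). In SNHG6, SNHG6-205 went from 62.4% (59.7 to 64.9) in replicate 1 to 40.4% (37.5 to 43.4) in replicate 2, and SNHG6-203 went from 28.0% (25.6 to 30.4) to 48.3% (45.3 to 51.4). These intervals do not overlap between the libraries. Both transcripts hold sequence words of 50 bases found in no other listed SNHG6 transcript, 14.2% and 25.9% of their words. Both have another version in GENCODE v44, so that these words may differ from the sequences counted. The exchange is thus larger than counting error in SNHG6, but the cause was not tested. In SNHG12 the counts were spread over annotated retained-intron forms, SNHG12-206 with 20.1% and 24.8%, SNHG12-204 with 19.8% and 18.0%, and SNHG12-201 with 20.3% and 11.99%. SNHG12-212 was listed at 0 in replicate 1, where 3 counts would allow 0.492%, and at 18.0% in replicate 2. None of these SNHG12 transcripts has a word of 50 bases to itself.

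ZFAS1 was divided between ZFAS1-201, with 39.8% (37.3 to 42.4) and 44.8% (42.2 to 47.5), and ZFAS1-204, with 43.4% (40.8 to 45.9) and 38.1% (35.5 to 40.7). Apart from 2 bases at the start, ZFAS1-204 differs from ZFAS1-201 by an added exon of 62 bases (chr20:49280903-49280964, plus strand, GRCh38), shown because the division between the leading ZFAS1 forms rests on it.
ZFAS1 exon: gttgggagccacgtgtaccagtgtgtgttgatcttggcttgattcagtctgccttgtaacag
Among the 9 listed ZFAS1 transcripts that cross this position, 6 contain the exon and 3 splice over it. Transcripts with the exon held 54.2% (51.5 to 56.7) of their counts in replicate 1 and 50.6% (47.9 to 53.3) in replicate 2, or 52.4 ± 2.51%. Neither form thus dominated ZFAS1 in either library, and neither leading transcript has a word of 50 bases of its own.

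**Figure D3:**
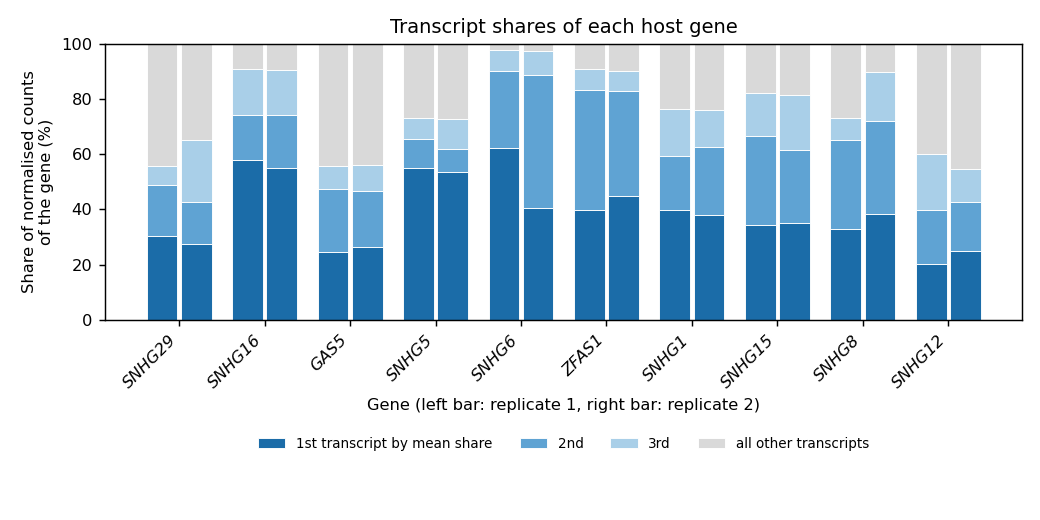
Share of each gene's normalised counts (%) on its 3 transcripts with the highest mean share and on all others, in replicate 1 (left bar) and replicate 2 (right bar), with genes in order of level per length. The bars of SNHG16 and SNHG5 are alike between libraries, while in SNHG6 the leading transcript holds 62.4% in replicate 1 and 40.4% in replicate 2.

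SNHG8 and SNHG15 each had a pair of transcripts near the lead. SNHG8-201 held 32.8% (29.2 to 36.4) and 38.2% (34.2 to 42.4), and SNHG8-204 held 32.6% (29.1 to 36.3) and 33.8% (29.8 to 37.8). The intervals of SNHG8-201 and SNHG8-204 overlapped in both libraries. SNHG8-205 went from 7.70% to 18.0%. SNHG15-202, a form of 2 exons and 3116 bases, held 34.4% and 35.2% of counts, SNHG15-205 held 32.3% and 26.5%, and SNHG15-208 held 15.6% and 19.9%. SNHG15-202 is far longer than SNHG15-205 (710 bases) and SNHG15-208 (505 bases), and with counts divided by length SNHG15-205 led in replicate 1 and SNHG15-208 in replicate 2.

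SNHG29-211 led SNHG29 with 30.4% (29.5 to 31.4) and 27.6% (26.7 to 28.5). SNHG29-209 went from 6.93% (6.43 to 7.45) to 22.5% (21.7 to 23.3), SNHG29-219 from 18.4% to 15.0% and SNHG29-210 from 15.7% to 10.5%. SNHG29-209 contains exon segments of 53 and 57 bases that SNHG29-211 lacks. None of these 4 transcripts has a word of 50 bases to itself, so that their division depended on the estimate made across transcripts. GAS5-218 led GAS5 with 24.4% (23.0 to 25.9) and 26.5% (25.1 to 28.0), followed by GAS5-213 with 23.0% and 20.1%. SNHG1-209 led SNHG1 with 39.9% (38.1 to 41.6) and 37.8% (36.1 to 39.6), ahead of SNHG1-211 with 19.7% and 24.9% and SNHG1-201 with 16.9% and 13.4%. GAS5-218, GAS5-213 and SNHG1-209 likewise have no word of 50 bases to themselves.

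Of 99 host transcripts that averaged 10 or more normalised counts, 28 (28.3%) differed by more than 2-fold between the libraries, against 29.6% of 67167 transcripts. Gene totals were thus more alike between the libraries than the transcripts they are made of. By direction, 9 of the 28 were higher and 19 lower in replicate 2, and 9 were listed at 0 in 1 library. The transcripts with the largest differences were SNHG29-226 with 296.0 normalised counts in replicate 1 and 0 in replicate 2, SNHG15-204 with 126.5 and 0, and SNHG12-212 with 0 and 97.3. At these depths 3 counts would allow shares of 0.0306% of SNHG29, 0.199% of SNHG15 and 0.492% of SNHG12 in the library where each was at 0.

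Within the host genes lie 38 snoRNA loci of the annotations, 32 of the C/D and 6 of the H/ACA class. GAS5 has 11, SNHG1 has 9, SNHG12 has 4, SNHG16, SNHG29 and ZFAS1 have 3 each, SNHG5 has 2, and SNHG6, SNHG8 and SNHG15 have 1 each. The following loci are shown because they lie in the parts of the host genes that the next values concern. Sequences are from GRCh38 on the host's strand at the annotated loci, with box C (TGATGA) and box D (CTGA) in capitals for C/D and the box ACA for H/ACA snoRNAs. They lie at chr1:173865968-173866028 (SNORD44, GAS5), chr1:173864833-173864903 (SNORD80, GAS5), chr11:62855564-62855632 (SNORD25, SNHG1), chr20:49278940-49279028 (SNORD12C, ZFAS1), chr20:49280313-49280415 (SNORD12B, ZFAS1), chr20:49280683-49280772 (SNORD12, ZFAS1), chr4:118279190-118279320 (SNORA24, SNHG8) and chr1:28579764-28579893 (SNORA61, SNHG12).
SNORD44: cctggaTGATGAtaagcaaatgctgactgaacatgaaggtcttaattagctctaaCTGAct
SNORD80: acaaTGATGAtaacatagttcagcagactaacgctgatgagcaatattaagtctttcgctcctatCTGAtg
SNORD25: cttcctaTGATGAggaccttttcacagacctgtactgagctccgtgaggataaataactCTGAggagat
SNORD12C: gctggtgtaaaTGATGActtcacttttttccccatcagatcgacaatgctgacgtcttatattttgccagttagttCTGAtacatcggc
SNORD12B: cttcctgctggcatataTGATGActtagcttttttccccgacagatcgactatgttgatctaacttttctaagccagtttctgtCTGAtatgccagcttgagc
SNORD12: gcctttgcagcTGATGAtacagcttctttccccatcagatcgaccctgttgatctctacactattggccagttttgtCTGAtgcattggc
SNORA24: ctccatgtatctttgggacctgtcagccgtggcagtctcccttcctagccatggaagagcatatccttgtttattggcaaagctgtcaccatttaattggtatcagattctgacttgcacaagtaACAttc
SNORA61: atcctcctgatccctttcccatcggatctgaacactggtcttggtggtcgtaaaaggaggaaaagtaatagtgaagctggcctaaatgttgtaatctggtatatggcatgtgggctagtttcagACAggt

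The exact words TGATGA near the start and CTGA near the end were found in 21 of the 32 C/D loci on the host's strand and in 0 on the other strand, and the short word ACA near the end in 5 of 6 H/ACA loci, and in 3 on the other strand. A snoRNA that lies in an exon of a listed transcript marks a form in which that intron was not removed. Such forms were 56 of the 162 host transcripts. They comprised 40 of the 46 annotated as retained-intron and 16 of the 116 annotated as lncRNA. They carried 22.2% and 21.99% of the host counts, and the retained-intron class carried 17.1% and 16.5%.

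The host genes differed widely in this respect. SNHG1 had 72.3% of counts on transcripts with a snoRNA in an exon in replicate 1 and 68.0% in replicate 2 (70.2 ± 3.07%), SNHG12 had 58.8% and 47.9% (53.4 ± 7.73%), and GAS5 had 42.9% and 42.8% (42.9 ± 0.124%). SNHG15 (35.0 ± 0.849%), SNHG8 (33.2 ± 0.836%) and SNHG29 (29.2 ± 0.462%) lay between. SNHG16 (8.86 ± 0.185%), SNHG5 (8.36 ± 1.04%), SNHG6 (8.09 ± 1.01%) and ZFAS1 (7.47 ± 0.153%) had less than 10% in both libraries. The 6 host genes with means above 29% and the 4 below 10% were thus apart by more than the spread between libraries. With counts divided by length this gap narrowed, as SNHG15 was then at 10.8 ± 0.386% and SNHG16 at 7.68 ± 0.0613%.

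The annotated retained-intron class gave another order, since it does not depend on snoRNAs. It held 65.7% and 62.8% of GAS5, 70.7% and 62.9% of SNHG1, and 79.3% and 66.5% of SNHG12. In SNHG29 it held 19.2% and 18.9%, and in SNHG5, SNHG6 and SNHG16 less than 10%. SNHG8, SNHG15 and ZFAS1 have no listed transcript of this class, although SNHG8-204 and SNHG15-202, annotated as lncRNA, hold SNORA24 and SNORA9 within an exon. SNHG8-204 keeps 251 bases (chr4:118279138-118279388) that SNHG8-201 splices out, with SNORA24 among them. Of its words of 50 bases, 57.2% are in no other listed SNHG8 transcript. SNHG8 shares 82 words with the separately listed SNORA24, so that reads there may be divided between host and snoRNA. The median share of the class was 19.04% over the 7 host genes with such a transcript (5.76% over all 10), 5.05% over 7020 genes with such a transcript and an average of 100 or more normalised counts, and 27.8% over the 98 lncRNA genes among those.

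Where a host gene carries several snoRNAs, the loci were taken separately. Each share is the counts of transcripts with the snoRNA in an exon over those with it in an exon or an intron. Transcripts with an exon that overlaps the locus only in part were left out. Loci of the same gene draw on the same transcript estimates and are not independent measures. Their contrast depends on which listed transcripts include each locus and on the division of reads between those transcripts. In SNHG1 the 9 loci ranged from 15.9 ± 2.85% at SNORD30 to 72.2 ± 2.49% at SNORD25. SNORD29 was at 70.1% and 64.7%, SNORD27 at 59.7% and 56.4%, and SNORD26 at 43.4% in both libraries. SNHG1-209 and SNHG1-201, which are among its leading transcripts, each keep 6 of the 9 snoRNA loci in exons. SNORD30 had the lowest share in both libraries, 17.9% and 13.9%, and lay next to SNORD29 and SNORD31, the latter at 45.3% and 43.1%.

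In GAS5 no such high value was seen among the box C/D loci. SNORD47 was highest with 22.4% and 27.6%, SNORD80 had 14.4% and 18.99%, SNORD79 had 17.2% and 14.8%, and SNORD44 had 7.21% and 7.22%. SNORD74, SNORD75 and SNORD78 were in an exon of no listed GAS5 transcript. The H/ACA locus SNORA103 could be placed in only 3 transcripts and is left without a reading. GAS5-213, the retained-intron form with 23.0% and 20.1% of counts, keeps segments of 172 and 39 bases that GAS5-218 lacks (chr1:173864503-173864674 and chr1:173865471-173865509), and neither contains a snoRNA. The share of GAS5 on retained-intron forms was therefore larger than its share on forms with a snoRNA in an exon.

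Within SNHG12, SNORA61 was in an exon for 57.8% and 39.7% of counts, SNORA44 for 24.8% and 23.2%, SNORA16A for 25.3% and 35.1%, and SNORD99 for 0. The 2 libraries thus moved in opposite directions at SNORA61 and SNORA16A. In ZFAS1, SNORD12 was in an exon for 7.62% and 7.36% of counts and SNORD12B and SNORD12C for 0. In SNHG16, SNORD1C was at 8.72% and 8.40%, SNORD1A at 0.281% and 0.342%, and SNORD1B at 0. In SNHG29, SNORD49A was at 19.2% and 18.9%, SNORD49B at 8.66% and 12.97%, and SNORD65 at 4.35% and 4.69%. An exon of SNHG29-209 (715.7 and 2044 normalised counts) overlaps SNORD49B in part, and this transcript was left out of both shares there. In SNHG5, SNORD50B was at 7.62% and 9.10%, and SNORD50A at 4.05% and 3.04%. SNORD99, SNORD12B, SNORD12C and SNORD1B are in an exon of no listed host transcript, so that their shares of 0 were fixed by the annotation. In ZFAS1 only SNORD12 could thus have a share above 0. In SNHG5, SNHG12, SNHG16 and SNHG29 the locus with the highest share was the same in both libraries.

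**Figure D4:**
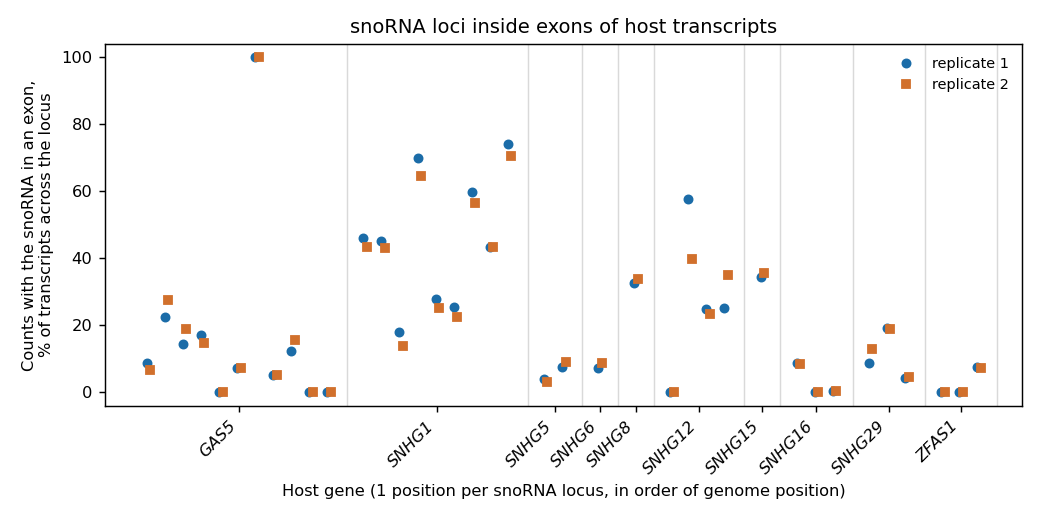
Counts on transcripts with the snoRNA inside an exon, as a percentage of counts on transcripts with it in an exon or an intron. The 38 snoRNA loci are in order of genome position within each host gene, in replicate 1 (circles) and replicate 2 (squares). Loci in an exon of no listed host transcript are at 0 by annotation. The highest SNHG1 locus averages 72.2% and the highest GAS5 locus of the C/D class 25.03%, and the single GAS5 point at 100% is SNORA103, which could be placed in only 3 transcripts.

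The snoRNAs themselves had few counts. A row was matched for 24 of the 38 loci. The 11 loci of GAS5 and those of SNORD31, SNORD29 and SNORD50A were not analysed here. The matched loci summed to 203.4 estimated counts (replicate 1) and 196.4 (replicate 2), and 8 of them were at 0 in both libraries. The mean reached 10 normalised counts at 8 loci. SNORA61 had 51.2 and 64.2 normalised counts, SNORD22 had 35.2 and 23.5, and SNORA44 had 16.8 and 23.2. SNORD26 (15.2 ± 6.19), SNORA24 (13.4 ± 2.72), SNORD12B (11.6 ± 4.57), SNORD28 (10.9 ± 7.58) and SNORD12C (10.3 ± 2.54) had fewer, with spreads that do not separate them. All but SNORD12B and SNORD12C also lie in an exon of a listed host transcript, so that their reads cannot be told apart from reads of unspliced host RNA. Whether the reads of SNORD12B and SNORD12C came from the snoRNAs or from unspliced ZFAS1 RNA was not tested either. Per length, SNORA61 was at 16.2 ± 2.78, against 20.9 ± 1.82 for SNHG12 itself. For a locus of 130 bases and without effective-length correction, these values do not give the abundance of the snoRNA relative to its host.

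Genes that share sequence or position with the host genes set a further limit, since no source used here says whether reads were counted by strand. On the other strand, GAS5 overlaps, among others, ZBTB37 (646 ± 49.1 normalised counts) and GAS5-AS1 (81.1 ± 11.0), SNHG8 overlaps PRSS12 (1141 ± 96.9), ZFAS1 overlaps ZNFX1 (973 ± 91.7) by 249 bases, and SNHG29 overlaps LRRC75A (401 ± 55.7). SNHG12 shares 8 bases with TRNAU1AP (409 ± 17.1), SNHG6 shares 1488 with MCMDC2 (23.1 ± 3.91), and SNHG16 shares 5962 with ENSG00000284526 (277 ± 11.8) and 21580 with ST6GALNAC2 (64.8 ± 14.6). On the same strand, SNHG5 overlaps ENSG00000271793 (98.2 and 55.3) and ZFAS1 holds the misc_RNA gene ENSG00000274760 (48.2 and 75.6). Each of the same-strand values was small beside the host, which had 2340 ± 409 for SNHG5 and 1413 ± 213 for ZFAS1.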

How the data were processed

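Total RNA depleted of rRNA from HEK293 Flp-In T-Rex cells had been made into 2 libraries with the TruSeq kit. The deposited tables hold, per transcript, estimated counts that the authors obtained with RSEM, by which reads are shared out among transcripts, and a normalised signal, the count divided by 1 size factor per library (0.945 and 1.08). The submitters' processing notes name FastQC, STAR 2.7.0d, RSEM 1.3.3 and R 3.6.3. Transcript identifiers, without their version, were looked up in GENCODE v44 (GRCh38): 202217 of 206696 matched, and of 162 host transcripts 77 had the same version and 85 another, so lengths and exons may differ from those used for counting.

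Normalised counts were summed per gene, with log2 differences taken on log2(normalised count + 1). Levels were counts divided by GENCODE v44 length without effective-length correction. The leading-transcript call and the 2-fold call on gene totals were tried on simulated counts, at higher minimum totals than those used here. The simulation held counting error only, without the division of reads between transcripts. It did not cover the 2-fold call on transcripts. Intervals cover counting error only. All 10 genes were named, with their transcripts leading or at a mean share of at least 10%, the 3 with the largest difference, and snoRNAs with a mean of at least 10. The genes and lists were chosen with earlier results of these data known, and the shares per snoRNA locus and of the ZFAS1 exon after seeing the data. Python 3.11.15 with pandas 2.3.3 was used.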

Additional observations from a re-analysis of the deposited data

How the results depend on the processing

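No paired analysis was possible because there was 1 group. The summed level per length of the 10 genes, 1338, ranged from 1210 to 1466 with either library left out. It was 494.5 with the union of exons as length, which lowered ZFAS1 to 8.998, 402.8 with transcripts of the same version only, and 2855 with totals that leave out small RNA classes and mitochondrial transcripts. Pairs of host genes separated in level numbered 35 to 39 under the alternatives, but their order was not always kept. With the union of exons as length, ZFAS1 lay below SNHG1 (37.7), SNHG8 (37.3) and SNHG15 (18.6). ZFAS1 (8.998 ± 1.40) then lay above SNHG12 (6.81 ± 0.888) by less than the sum of both SDs, so that this pair was not separated. The median share of the leading transcript (37.6%) ranged from 37.13 to 37.998% with either library left out and was 48.9% without retained-intron transcripts. Both libraries had the same leader in 9 of 10 genes with counts divided by length, against 71.16% of all genes with several transcripts. With transcripts of the same version it was the same in 5 of 8, against 71.20%. Transcripts past 2-fold numbered 28, and 5 (9.80%, against 15.3% of all transcripts) at a mean of at least 100. The share on transcripts with a snoRNA in an exon was 19.6% with counts divided by length, and 21.99 to 22.2% with either library left out; that of SNHG15 went from 35.0 to 10.8%. snoRNAs summed to 199 normalised counts, 182 to 215 with either library left out, and to 25.9 over the 4 loci with a listed row outside host exons. The median log2 difference of gene totals stayed between -0.28 and -0.20. The causes were not tested. Of the 162 transcripts, 77 have no word of 50 bases absent from the other listed transcripts of their gene. This limits any division between transcripts.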
